A study of Arabidopsis thaliana with 4 samples.

Results

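The mitochondrially encoded protein-coding genes were taken as the annotations of the deposited expression table that lie on the mitochondrial chromosome and carry the type protein_coding, and these were 122 of the 33476 annotations. Expression was measured by mRNA-Seq in 4 libraries of Arabidopsis thaliana in the Columbia background, 2 of dividing tissue (the meristem and younger leaves) and 2 of non-dividing tissue (the oldest 4 to 6 leaves), both dissected and so of mixed cell types. One library of each tissue came from homozygous plants carrying HTR5 fused to GFP and the other from homozygous plants carrying HTR13 fused to GFP, each under its endogenous promoter, so every plant carried a tagged histone H3 gene and no untransformed plants were included. All plants were 4 weeks old, had been stratified in the dark for 5 days at 4°C and grew under days of 8 h light and nights of 16 h, at 20 to 22°C. Poly-A RNA was selected from 10 µg of total RNA.

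Plant mitochondria keep a small genome of their own that encodes core subunits of the respiratory chain and of the ATP synthase, a set of ribosomal proteins, the machinery that attaches heme to cytochrome c, and many open reading frames without an assigned role. The respiratory complexes are mosaics: most of their subunits are encoded in the nucleus and imported, and complex II in Arabidopsis is encoded in the nucleus altogether. Mitochondrial transcripts are made by phage-type RNA polymerases that are themselves nuclear genes, and are spliced and edited by imported factors. In plant mitochondria a poly-A tail is known as a mark for decay rather than a feature of the mature mRNA, so libraries selected for poly-A report on the tailed fraction of these transcripts.

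Of the 122 genes, 38 had a known function and 84 were treated as open reading frames (ORFs). A large insertion of mitochondrial DNA is present on chromosome 2 of the Columbia nuclear genome, and its annotations carry the prefix AT2G07. In the RefSeq assembly TAIR10.1, 132 nuclear annotations of the table had at least 50% of their 36-base stretches in the mitochondrial genome. Of these, 129 were on chromosome 2 and 128 of them had the prefix AT2G07, between positions 3239657 and 3507323.

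The copies are shown for the genes on which the comparison turned. RPS12, a protein of the small ribosomal subunit, and its copy AT2G07675 did not differ at any of 378 positions; their first 120 bases are given 5′ to 3′, from mitochondrial positions 288446 to 288565 and from chromosome 2 positions 3270410 to 3270529 of TAIR10.1, both on the plus strand. Capitals mark the first stretch of 36 bases, the length used to compare the genomes.
RPS12, mitochondrial genome: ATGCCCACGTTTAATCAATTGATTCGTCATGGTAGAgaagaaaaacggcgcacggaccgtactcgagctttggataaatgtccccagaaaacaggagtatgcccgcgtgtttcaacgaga
AT2G07675, chromosome 2: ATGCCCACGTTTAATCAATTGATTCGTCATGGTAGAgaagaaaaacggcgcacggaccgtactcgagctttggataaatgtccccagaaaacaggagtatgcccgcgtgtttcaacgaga
ATMG00590 is an ORF whose RefSeq note names a cytochrome b/b6 protein. Its copy AT2G07718 has a coding sequence of 942 bases, the length of ATMG00590, and that sequence occurs whole in the mitochondrial genome. The first 120 bases are given from chromosome 2 positions 3426263 to 3426382 on the plus strand, with the first 36-base stretch in capitals.
AT2G07718, chromosome 2: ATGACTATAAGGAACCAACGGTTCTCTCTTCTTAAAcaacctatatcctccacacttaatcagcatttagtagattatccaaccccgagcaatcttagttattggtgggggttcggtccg
ATP9 encodes the subunit that forms the rotating ring of the ATP synthase. Its coding sequence of 225 bases, at mitochondrial positions 270961 to 271185 on the minus strand, is given whole. Here capitals mark the 158 bases that lie in a 36-base stretch occurring more than once in the mitochondrial genome itself.
ATP9, mitochondrial genome: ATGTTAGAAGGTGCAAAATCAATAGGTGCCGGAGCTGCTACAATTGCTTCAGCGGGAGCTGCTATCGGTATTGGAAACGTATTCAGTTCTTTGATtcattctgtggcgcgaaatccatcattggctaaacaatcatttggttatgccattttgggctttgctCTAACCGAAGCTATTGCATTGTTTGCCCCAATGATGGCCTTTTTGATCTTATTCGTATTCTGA
RPL16, a protein of the large ribosomal subunit, shared part of its sequence with the nucleus, 219 of 540 bases. The 180 bases across the edge of a shared part are given, from mitochondrial positions 23414 to 23593 on the plus strand. Capitals mark bases within a 36-base stretch that also occurs on nuclear chromosomes.
RPL16, mitochondrial genome: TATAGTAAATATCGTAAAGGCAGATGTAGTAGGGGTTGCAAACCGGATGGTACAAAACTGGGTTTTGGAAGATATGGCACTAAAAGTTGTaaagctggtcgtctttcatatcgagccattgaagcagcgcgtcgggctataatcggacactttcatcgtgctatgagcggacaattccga

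Expression is given as FPKM, fragments scaled to the length of the annotation and to the mapped reads of the library. No read counts were in the table, so the depth behind a single FPKM is unknown. Summed FPKM over all annotations lay between 700884 and 715002 per library. The tissue labels were checked with marker genes: of 10 genes of dividing shoot tissue 8 were tested and all 8 were higher in dividing tissue, whereas CLV3 and WUS were listed at 0 in all 4 libraries. Of 6 genes of mature leaves, 4 were higher in non-dividing tissue. The phloem companion cell gene SUC2 had 44.0 and 37.3 FPKM in dividing and 137 and 134 FPKM in non-dividing tissue, and the trichome gene GL2 had 21.0 and 25.6 against 0.212 and 0.378 FPKM. Chloroplast RNA set 1 library apart: summed chloroplast ribosomal RNA reached 5339 FPKM in the non-dividing HTR5::GFP library, against 1126 FPKM in the other non-dividing library and 572 and 716 FPKM in dividing tissue.

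The mitochondrial genes had low FPKM in these poly-A-selected libraries, where the level of untailed transcripts was not measured. In the HTR5::GFP and HTR13::GFP libraries they summed to 71.0 and 68.0 FPKM in dividing tissue and to 90.4 and 80.2 FPKM in non-dividing tissue, which was between 0.00959 and 0.0126% of all FPKM. Both non-dividing libraries were above both dividing libraries. The summed FPKM in dividing tissue was 0.815 of that in non-dividing tissue, and the ratio was 0.786 for HTR5::GFP and 0.847 for HTR13::GFP plants. An exact two-sided permutation test of the 4 sums gave p = 0.333, the smallest value that 2 libraries against 2 allow. In bulk tissue, fewer cells of a type and less RNA per cell cannot be told apart.

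A single ORF, ATMG00030 (TAIR9 mitochondrial positions 11918 to 12241), held between 23.8 and 35.9% of the summed FPKM. It had 25.5 and 20.8 FPKM in dividing and 30.9 and 19.1 FPKM in non-dividing tissue, and the tissues overlapped. The next highest mean over the 4 libraries was 4.48 FPKM, that of ATMG00280. Without ATMG00030, the summed FPKM in dividing tissue was 0.768 of that in non-dividing tissue, a value computed after the data had been seen.

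Of the 122 genes, 60 were above 0 somewhere, 35 of them in all 4 libraries and 25 in 1 to 3 libraries, while 62 were listed at 0 throughout. Of the 38 genes of known function, 35 were above 0 in at least 1 library and 26 in all 4. Of the 84 ORFs, 25 were above 0 in at least 1 library and 9 in all 4, and 59 were listed at 0 in every library. For comparison, 74.0% of nuclear and 85.2% of chloroplast-encoded protein-coding genes were above 0 in at least 1 library, against 49.2% of the mitochondrial genes. The 21 mitochondrial tRNA annotations were all listed at 0. The 3 mitochondrial ribosomal RNA annotations summed to 100 and 137 FPKM in dividing and 77.4 and 55.7 FPKM in non-dividing tissue, and they differed among themselves. ATMG01390, which held most of the sum, had 82.0 and 116 FPKM in dividing against 44.0 and 36.8 FPKM in non-dividing tissue (limma adjusted p = 0.0038). ATMG01380, an annotation of 118 bases, was listed at 0 in both dividing libraries and had 8.25 and 9.28 FPKM in the non-dividing ones (limma adjusted p = 0.000174). ATMG00020 overlapped between the tissues, with 18.3, 21.0, 25.2 and 9.66 FPKM in the dividing and then the non-dividing libraries (adjusted p = 0.552).

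To ask how the mitochondrial genes differed between the tissues, dividing tissue was compared with non-dividing tissue by limma on log2(FPKM + 1) over all 17967 annotations whose FPKM averaged 1 or more. A log2 fold change on this scale is positive where expression was higher in dividing tissue and is smaller than the true log2 ratio where FPKM is low. Of the mitochondrial genes 20 passed the filter, 16 of known function and 4 ORFs, and the other 102 were not tested. Expression was higher in non-dividing tissue for 6 of the 20 genes: NAD4, COX2, ATP9, ATMG00280, ATMG00590 and ATMG00660. It was higher in dividing tissue for RPS12 alone, and 13 genes did not pass the adjusted threshold of 0.05. Of all tested annotations, 18.2% were called higher in non-dividing tissue and 51.7% higher in dividing tissue, against 30.0% and 5.00% of the mitochondrial genes tested.

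The median log2 fold change was -0.12 over the 20 mitochondrial genes and 0.38 over all tested annotations. Whether the positive median over all annotations came from the scaling or from the tissues was not tested. Rescaling the libraries (by the median ratio of their FPKM to the averages over libraries) brought it to 0.02, which this method does by design. After this rescaling the median of the 20 mitochondrial genes was -0.43. Then 8 of the 20 genes were called higher in non-dividing tissue, with COX1 and NAD4L added to the 6 named above, and none was called higher in dividing tissue by limma, at an unadjusted p under 0.05 as well. The rescaled background was 30.7% of annotations higher in non-dividing and 31.0% higher in dividing tissue. With the transgenic line as a block the calls in non-dividing tissue were the same 6 genes (background 20.2%), whereas CCMB, NAD9 and RPL16 joined RPS12 as higher in dividing tissue (background 54.1%). Whichever library was left out, not all of the 6 genes kept their call. The share of all annotations called higher in non-dividing tissue then fell as well.

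**Figure D1:**
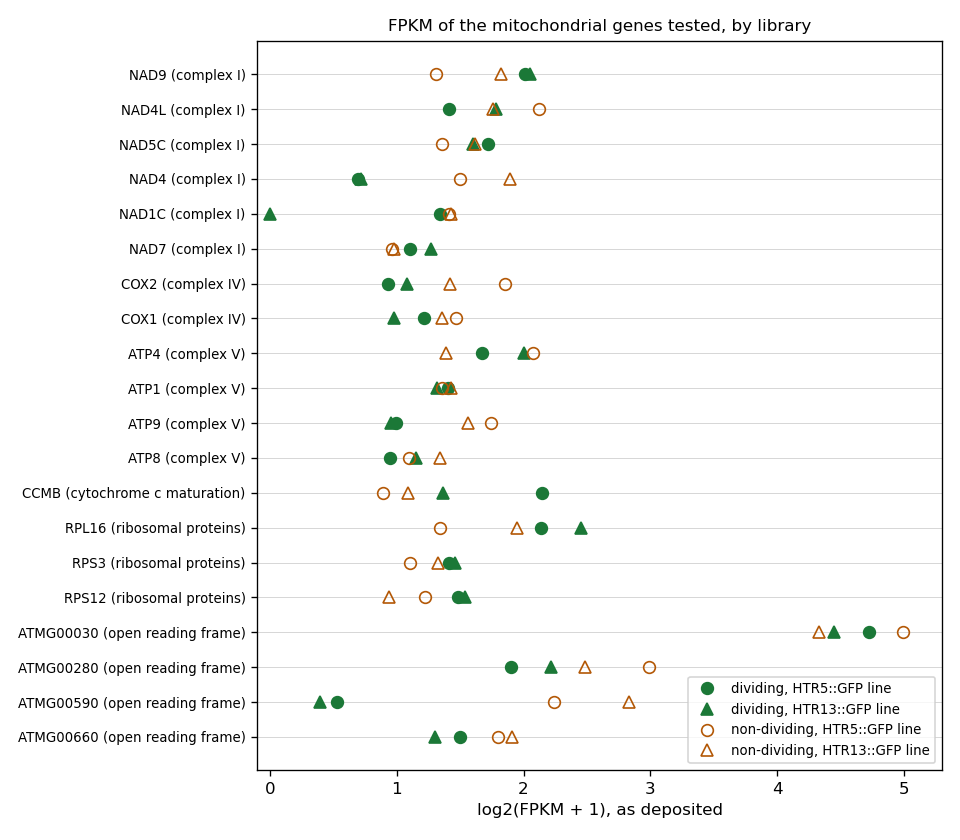
FPKM of the 20 mitochondrial genes tested, as log2(FPKM + 1), in each of the 4 libraries (filled green, dividing; open orange, non-dividing; circles, HTR5::GFP line; triangles, HTR13::GFP line). The tissues are farthest apart for ATMG00590, with 0.445 and 0.315 FPKM in dividing and 3.72 and 6.13 FPKM in non-dividing tissue, and ATMG00030 lies to the right of all other genes in every library.

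Genes of complex I, the NADH dehydrogenase that feeds electrons into the respiratory chain, are given first. NAD4 (ATMG00580), a membrane subunit of the proton-pumping arm (TAIR9 positions 161693 to 169674), had 0.622 and 0.642 FPKM in dividing and 1.83 and 2.71 FPKM in non-dividing tissue. Both non-dividing libraries were above both dividing libraries, and the difference passed the test (log2 fold change -0.99, SE 0.17, limma adjusted p = 0.00545). Without either dividing library its adjusted p was 0.0585 or 0.0584. Of its 36-base stretches 96.4% also occur on nuclear chromosomes, so its FPKM cannot be assigned to the mitochondrial genome alone.

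NAD9 (ATMG00070), a subunit of the peripheral arm, went the other way, with 3.02 and 3.14 FPKM in dividing and 1.48 and 2.54 FPKM in non-dividing tissue. The libraries of the tissues did not overlap, but the test gave an adjusted p of 0.0864 without and 0.0336 with the line as a block (log2 fold change 0.46, SE 0.20), and 0.480 after rescaling. NAD7 (ATMG00510), another subunit of the peripheral arm, had 1.15 and 1.41 FPKM in dividing and 0.947 and 0.969 FPKM in non-dividing tissue, with an adjusted p of 0.190. Its log2 fold change was 0.22 as deposited and 0.00 after rescaling.

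NAD4L (ATMG00650), a small membrane subunit, had 1.67 and 2.44 FPKM in dividing and 3.36 and 2.38 FPKM in non-dividing tissue, where the tissues overlapped. Its adjusted p was 0.175 as deposited and 0.0421 after rescaling (rescaled log2 fold change -0.63).

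NAD1, NAD2 and NAD5 are each assembled by trans-splicing from separate transcripts, and the table lists their pieces as separate genes. The last piece of NAD5, NAD5C (ATMG00060), had 2.30 and 2.03 FPKM in dividing and 1.57 and 2.07 FPKM in non-dividing tissue, which overlapped (log2 fold change 0.17, SE 0.14, adjusted p = 0.320). The first piece, NAD5A (ATMG00513), had 0.572, 0.699, 0.508 and 0.579 FPKM in the dividing HTR5::GFP, dividing HTR13::GFP, non-dividing HTR5::GFP and non-dividing HTR13::GFP libraries, the order used for all series of 4 values that follow. NAD5B (ATMG00665), an annotation of 22 bases, was listed at 0 throughout.

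The pieces of NAD1 stood further apart. NAD1C (ATMG00516) had 1.53, 0, 1.67 and 1.69 FPKM, so that only the dividing HTR13::GFP library was listed at 0 (adjusted p = 0.185), and without the dividing HTR5::GFP library the adjusted p was 0.0145. NAD1A (ATMG01275) and NAD1B (ATMG01120) were listed at 0 in all 4 libraries. The maturase gene MATR (ATMG00520), whose product takes part in intron splicing, lies inside the NAD1C annotation and had 0.278, 0.204, 0.462 and 0.499 FPKM.

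The remaining genes of complex I were below the filter. NAD2A (ATMG00285) had 0, 0.458, 0 and 0.618 FPKM, above 0 in the HTR13::GFP line only. NAD2B (ATMG01320) had 0.259, 0.317, 0.718 and 0.456 FPKM, higher in both non-dividing libraries. NAD3 (ATMG00990) had 0.916, 0, 1.47 and 0 FPKM, above 0 in the HTR5::GFP line only, and NAD6 (ATMG00270) had 0, 0.281, 0.426 and 0.317 FPKM.

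COB (ATMG00220), which encodes cytochrome b of complex III and is the one subunit of that complex in the mitochondrial genome, had 0.666, 0.554, 0.797 and 0.611 FPKM and overlapped between the tissues. In complex IV, cytochrome c oxidase, COX2 (ATMG00160, TAIR9 positions 40502 to 42628) had 0.906 and 1.12 FPKM in dividing and 2.62 and 1.67 FPKM in non-dividing tissue. Both non-dividing libraries were higher (log2 fold change -0.63, SE 0.19, adjusted p = 0.0314), but without any 1 of the dividing libraries or of the non-dividing HTR5::GFP library the adjusted p lay between 0.0776 and 0.171.

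COX1 (ATMG01360), the catalytic subunit of complex IV, had 1.32 and 0.973 FPKM in dividing and 1.77 and 1.56 FPKM in non-dividing tissue, without overlap. Its adjusted p was 0.0995 as deposited and 0.0227 after rescaling (log2 fold changes -0.32 and -0.56). COX3 (ATMG00730), the other core subunit, had 0.213, 0.279, 0.538 and 0.296 FPKM, the lowest of the 3 COX genes in each library.

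Among the genes of complex V, the ATP synthase, ATP9 (ATMG01080) stood out. It lies at TAIR9 positions 278649 to 279152 and had 0.992 and 0.935 FPKM in dividing and 2.36 and 1.96 FPKM in non-dividing tissue. The means were 0.964 ± 0.040 and 2.16 ± 0.28 FPKM (SD, n = 2 libraries), the libraries did not overlap, and the log2 fold change was -0.68 (SE 0.13, limma adjusted p = 0.00713). Of the 36-base stretches of its coding sequence 100% also occur on nuclear chromosomes, so its FPKM cannot be assigned to the mitochondrial genome alone. That coding sequence has 225 bases, the TAIR9 annotation 504, and the rest of the annotation was not compared. ATP9 and ATMG00590 were the only mitochondrial genes with an adjusted p under 0.05 in all 12 alternatives run for them, with 0.0459 as the highest value for ATP9.

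None of the other subunits of complex V was called in either direction. ATP1 (ATMG01190), the catalytic-head subunit alpha, had 1.64, 1.5, 1.55 and 1.69 FPKM and overlapped between the tissues (log2 fold change -0.03, SE 0.12, adjusted p = 0.832). ATP4 (ATMG00640), a subunit of the peripheral stalk, had 2.20 and 3.0 FPKM in dividing and 3.21 and 1.62 FPKM in non-dividing tissue, so that the lines went in opposite directions. ATP8 (ATMG00480), a small membrane subunit, had 0.923, 1.22, 1.14 and 1.54 FPKM with an adjusted p of 0.370. The copies of the proton-channel subunit ATP6 were below the filter, with 0.367, 0.412, 0.515 and 0.425 FPKM for ATP6-1 (ATMG00410) and 0.974, 0.629, 0.848 and 0.738 FPKM for ATP6-2 (ATMG01170).

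Of the 5 genes of cytochrome c maturation 1 was tested, and of the 7 ribosomal protein genes 3 were tested, among which RPS12 passed the threshold. CCMB (ATMG00110), a membrane component of the heme exporter, had 3.43 and 1.58 FPKM in dividing and 0.859 and 1.12 FPKM in non-dividing tissue. The libraries did not overlap (log2 fold change 0.77, SE 0.28), and the adjusted p was 0.0589 without and 0.0258 with the line as a block. CCMC (ATMG00900), which handles heme in the same pathway, had 0.315 and 0.336 FPKM in dividing tissue and was listed at 0 in both non-dividing libraries. The genes of the heme lyase were low, with 0.536, 0.354, 0.550 and 0.794 FPKM for CCMFC (ATMG00180), 0, 0.155, 0.185 and 0.190 FPKM for CCMFN1 (ATMG00830), and 0, 0.292, 0 and 0 FPKM for CCMFN2 (ATMG00960). MTTB (ATMG00570), a membrane protein related to the twin-arginine protein transporter, had 0.433 FPKM in the non-dividing HTR5::GFP library and was listed at 0 in the others.

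RPS12 (ATMG00980, TAIR9 positions 260224 to 260601) had 1.80 and 1.91 FPKM in dividing and 1.33 and 0.912 FPKM in non-dividing tissue. Both dividing libraries were higher, and the log2 fold change was 0.43 (SE 0.15, adjusted p = 0.0467). The adjusted p was 0.0509 with a pseudocount of 0.1, 0.315 after rescaling and between 0.124 and 0.150 without either dividing library or without the non-dividing HTR13::GFP library.

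RPL16 (ATMG00080) had 3.4 and 4.48 FPKM in dividing and 1.53 and 2.85 FPKM in non-dividing tissue, again without overlap. Its log2 fold change of 0.65 (SE 0.24) had an adjusted p of 0.0599 without and 0.00439 with the line as a block, and of 0.259 after rescaling. RPS3 (ATMG00090), a small-subunit protein whose annotation overlaps that of RPL16 by 134 bases, had 1.66 and 1.74 FPKM in dividing and 1.15 and 1.5 FPKM in non-dividing tissue. Its log2 fold change was 0.22 as deposited (adjusted p = 0.196) and -0.02 after rescaling.

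The other ribosomal protein genes were below the filter. RPL5 (ATMG00210) had 0.799, 0.599, 0.632 and 0.703 FPKM, RPS4 (ATMG00290) had 0.277, 0.412, 0.333 and 0.377 FPKM, and RPS7 (ATMG01270) had 0.517, 0.418, 0 and 0.419 FPKM. RPL2 (ATMG00560) was the one with both non-dividing libraries higher, at 0.363, 0.239, 0.559 and 0.655 FPKM. Summed over the 7 ribosomal protein genes, dividing tissue had 8.81 and 9.79 FPKM and non-dividing tissue 5.53 and 7.42 FPKM, whereas the 3 genes of complex IV had 2.44 and 2.37 FPKM against 4.92 and 3.53 FPKM. The 14 annotations of complex I summed to 12 and 11.4 FPKM in the dividing and 14.0 and 14.3 FPKM in the non-dividing libraries.

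**Figure D2:**
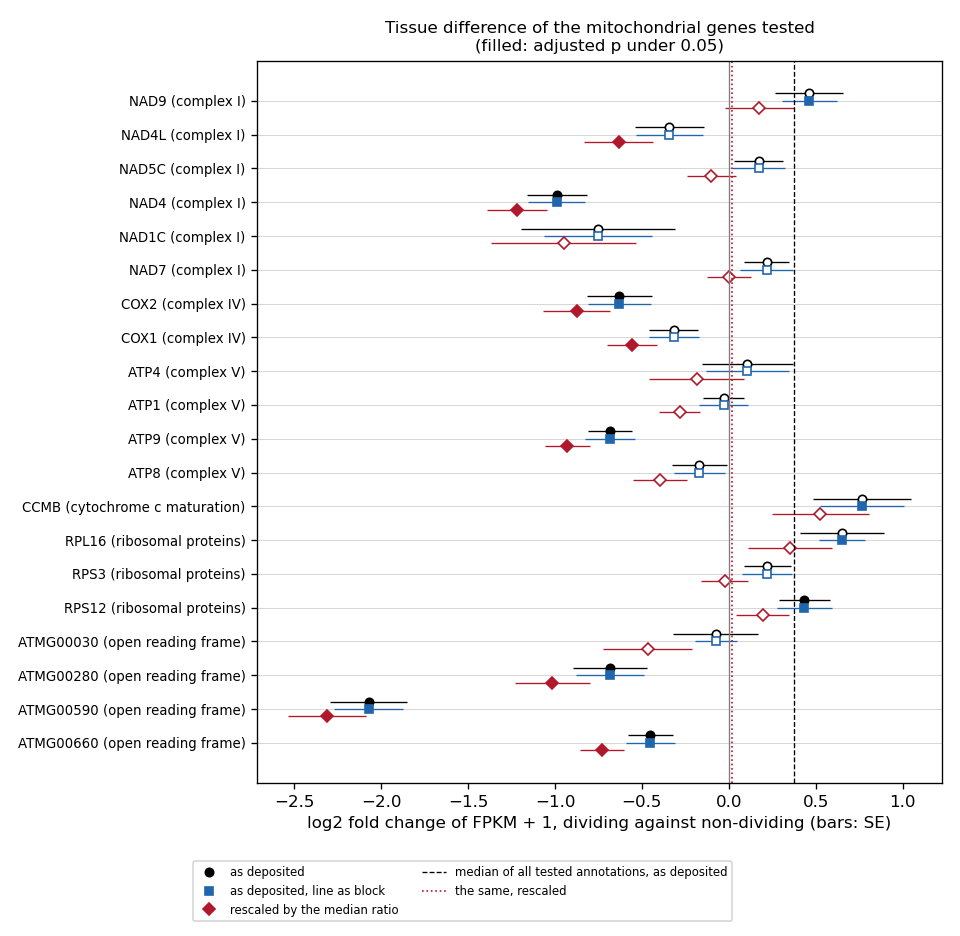
Log2 fold change (FPKM + 1, dividing against non-dividing) with its SE for the 20 mitochondrial genes tested, as deposited (black), with the line as a block (blue) and after rescaling (red); filled symbols passed an adjusted p of 0.05. The dashed and dotted lines mark the median of all tested annotations, 0.38 as deposited and 0.02 after rescaling, and 16 of the 20 genes lie to the left of the dashed line.

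The largest tissue difference was that of an ORF, ATMG00590 (TAIR9 positions 169796 to 170737). It had 0.445 and 0.315 FPKM in dividing and 3.72 and 6.13 FPKM in non-dividing tissue, with means of 0.380 ± 0.092 and 4.92 ± 1.7 FPKM (SD, n = 2 libraries). The log2 fold change was -2.07 (SE 0.22, limma adjusted p = 0.0013), and the adjusted p stayed at or below 0.0389 in the alternatives. Its copy AT2G07718 on chromosome 2 had the same FPKM in every library, so these values cannot be assigned to the mitochondrial genome alone. The alternatives did not separate gene and copy. ATMG00590 lies 121 bases from NAD4, which was also higher in non-dividing tissue. Of the 20 genes, 2 other neighbouring pairs lay within 500 bases: RPL16 and RPS3, with log2 fold changes of 0.65 and 0.22, and ATP4 and NAD4L, with 0.11 and -0.34.

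ATMG00280, which a RefSeq note ties to the large chain of ribulose bisphosphate carboxylase, a chloroplast enzyme, had 2.73 and 3.64 FPKM in dividing and 6.95 and 4.60 FPKM in non-dividing tissue. Both non-dividing libraries were higher (log2 fold change -0.68, SE 0.21, adjusted p = 0.0363). Without either dividing library or without the non-dividing HTR5::GFP library the adjusted p lay between 0.114 and 0.237, and without a filter on low FPKM it was 0.0541. Of 66 chloroplast-encoded protein-coding genes tested, 29 were called higher in non-dividing and 10 in dividing tissue. Of all tested annotations, 18.2% were called higher in non-dividing and 51.7% in dividing tissue. All 88 chloroplast-encoded protein-coding genes summed to 472 and 500 FPKM in dividing tissue against 1403 and 737 FPKM in non-dividing tissue. The 1403 FPKM were in the HTR5::GFP library that stood apart in chloroplast RNA. ATCG00490, the chloroplast gene of that large chain, had 39.8 and 52.7 FPKM in dividing and 135 and 78.0 FPKM in non-dividing tissue. Its log2 fold change was -1.15 (limma adjusted p = 0.0194), and its 4 libraries stood in the same order as those of ATMG00280. The part of chloroplast RNA in the values of ATMG00280 was not tested.

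ATMG00660 had 1.83 and 1.46 FPKM in dividing and 2.48 and 2.75 FPKM in non-dividing tissue, without overlap (log2 fold change -0.45, SE 0.13, adjusted p = 0.0285). Its adjusted p lay between 0.0539 and 0.0953 without the dividing HTR13::GFP library or without either non-dividing library. ATMG01220, the ORF next in mean FPKM, was listed at 0 in both dividing libraries and had 1.87 and 2.00 FPKM in non-dividing tissue. It was below the filter and was not tested, and the 20 other ORFs above 0 in any library had lower means. Among these, ATMG01090, which a RefSeq note ties to subunit 9 of the ATP synthase and which is named here after its values were seen, had 0.382, 0.466, 1.01 and 1.17 FPKM. Both non-dividing libraries were higher, as for ATP9. ATMG01090 lies near ATP9, at TAIR9 positions 279463 to 280251. Of the 36-base stretches of the ATP9 coding sequence, 46.3% occur more than once in the mitochondrial genome. Whether ATMG01090 and ATP9 have reads in common was not tested.

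Many of these values cannot be assigned to the mitochondrial genome alone, because in TAIR10.1 the chromosome 2 copies hold the same sequence. The sequences of TAIR9, to which the reads were aligned, were not compared. Values of annotations that overlap on the mitochondrial chromosome (RPL16 with RPS3, MATR with NAD1C, NAD3 with ATMG01000, and NAD2B with ATMG01330) are likewise uncertain. Of the 37 genes of known function long enough to hold a 36-base stretch, 27 shared at least 50% of their stretches with nuclear chromosomes, with shares from 71.5 to 100%, and 15 shared all of them. The other 10 shared between 0 and 36.4%. For the ORFs, ATMG00030 and ATMG00660 among them, this share was not computed. The RPS12 pair printed above had the same FPKM in all 4 libraries, as did ATMG00590 and AT2G07718, ATP8 and AT2G07707, and CCMC and AT2G07771. In all, 5 mitochondrial genes had values identical to a nuclear annotation, and 7 to any other annotation, whereas 0.266% of all annotations above 0 had an identical partner.

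For ATP9 and ATMG00280 the copies had other values than the genes, with the tissues in the same order. AT2G07671, the copy tied to ATP9, had 1.39 and 1.19 FPKM in dividing and 3.27 and 3.4 FPKM in non-dividing tissue, and limma gave a log2 fold change of -0.92 (adjusted p = 0.00197). AT2G07732, the copy tied to ATMG00280, had 1.49 and 1.88 against 5.46 and 2.81 FPKM (log2 fold change -0.89, adjusted p = 0.0348). The 132 nuclear annotations with mitochondrial sequence summed to 25.0 and 22.3 FPKM in dividing and 38.4 and 41.7 FPKM in non-dividing tissue.

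Genes with little and with much sequence in the nucleus are described separately, without a test between them. The 10 genes that shared under 50% had a median of the mean FPKM of 1.87, and 9 of them were tested, while the 27 others had a median of 0.454 FPKM and 7 were tested. Among the 9 were COX2, NAD9, NAD5C, NAD4L, ATP4, COX1, CCMB, RPS3 and RPL16. Their median log2 fold change was 0.17 as deposited and -0.10 after rescaling, against -0.17 and -0.39 for the 7 tested genes with copies, which were NAD4, NAD7, NAD1C, ATP1, ATP8, ATP9 and RPS12. Of the 9, COX2 was called higher in non-dividing tissue, and none was called higher in dividing tissue by limma (2 at an unadjusted p under 0.05). The shares of all tested annotations were 18.2% and 51.7%. With the line as a block, 3 of the 9 were called higher in dividing tissue, against 54.1% of all tested annotations. After rescaling, 3 of the 9 were called higher in non-dividing tissue, against 30.7% of all tested annotations.

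**Figure D3:**
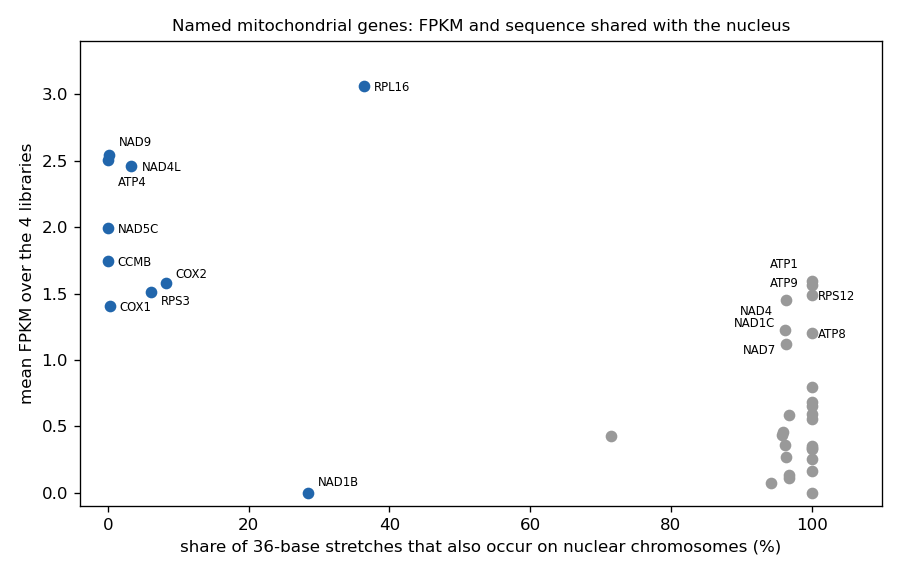
Mean FPKM over the 4 libraries against the share of a gene's 36-base stretches that also occur on nuclear chromosomes, for 37 mitochondrial genes of known function. The 10 genes below 50% (blue) have a median of 1.87 FPKM and the 27 above (grey) a median of 0.454 FPKM; genes below 50% or with a mean of at least 1 FPKM are named.

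The mitochondrial subunits were set beside their nuclear-encoded partners, which are subunits of the same complexes and other mitochondrial proteins. These partners had a median of the mean FPKM of 40.5, against 0.627 for the mitochondrial genes of known function. On the scale of FPKM + 1 the log2 fold changes of the mitochondrial genes are shrunk more, so their sizes cannot be compared directly. Of all tested annotations, 51.7% were called higher in dividing tissue as deposited and 31.0% after rescaling. The shares called higher in non-dividing tissue were 18.2% as deposited and 30.7% after rescaling. The counts that follow stand beside these shares. Of 75 nuclear partner genes, 71 were tested, 46 were called higher in dividing tissue and 4 higher in non-dividing tissue, with a median log2 fold change of 0.57 against 0.38 over all tested annotations. After rescaling, 25 were called in favour of dividing tissue and 12 of non-dividing tissue, and the median was 0.17 against 0.02. The 75 genes summed to 4401 and 4756 FPKM in dividing tissue and to 3781 and 3799 FPKM in non-dividing tissue as deposited.

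For complex I, 10 of 12 nuclear subunits tested were higher in dividing tissue (median log2 fold change 0.59), from the carbonic anhydrase-like subunit GAMMA CAL1 at 1.11 to FRO1 at -0.15, which did not pass the test. After rescaling, dividing tissue was higher for 4 and non-dividing tissue for 2, the median was 0.19, and FRO1 was among those higher in non-dividing tissue (-0.56, adjusted p = 0.0130). Of the 6 mitochondrial annotations of complex I tested, NAD4 was higher in non-dividing tissue as deposited and the other 5 did not pass the test, and their median was -0.09. Complex II, with no gene among the named mitochondrial ones, had 2 of 6 genes higher in dividing tissue, with log2 fold changes from 0.13 (SDH3-1) to 0.59 (SDH4). Its median was 0.21 as deposited and -0.18 after rescaling, when none of its genes was called in either direction.

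For complex III and cytochrome c, dividing tissue was higher for 4 of 10 genes and non-dividing tissue for 2. Log2 fold changes ran from 1.2 for MPPalpha, a processing peptidase subunit within the complex, to -0.85 for the cytochrome c gene CYTC-2. After rescaling, dividing tissue was higher for 2 and non-dividing tissue for 3 (median -0.08). For complex IV, 4 of 7 nuclear genes were higher in dividing tissue (median 0.44), from COX6B at 1.05 to AT4G37830 at 0.01, and after rescaling 3 were higher in dividing tissue and 1, AT4G37830, in non-dividing tissue (median 0.04). The mitochondrial COX1 and COX2 had -0.32 and -0.63. For complex V, 6 of 8 nuclear genes were higher in dividing tissue (median 0.67), from AT5G08690, annotated here as a complex V gene, at 1.01 to AT5G47030 at 0.07, and the 4 mitochondrial genes had a median of -0.10. After rescaling, 4 nuclear genes were higher in dividing tissue and 2 were lower (median 0.26).

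Factors that act on the mitochondrial genome and its RNA depended on the scaling in their number of calls. Of 13 splicing and editing genes tested 11 were higher in dividing tissue as deposited and 7 after rescaling (medians 0.74 and 0.43), from the editing factor MORF1 at 1.44 to OTP43 at 0.17. Of 7 genes of DNA replication and recombination 6 were higher in dividing tissue as deposited (median 0.74), and 5 were higher and 1 lower after rescaling (median 0.37), with deposited values from the DNA polymerase POLGAMMA1 at 1.35 to OSB1 at -0.24. Of 2 RNA polymerase genes, MGP3 was higher in dividing tissue at 0.50 and AT5G15700, at 0.08, did not pass the test. Of 2 RNA decay genes, EMB2730 was tested and was higher in dividing tissue at 0.30. No gene of these last lists was called in either direction by limma after rescaling, when MGP3 had an adjusted p of 0.289, AT5G15700 of 0.315 and EMB2730 of 0.409.

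Photorespiration, which releases glycine-derived carbon dioxide in leaf mitochondria, was the list with a median below 0 as deposited (-0.29, and -0.70 after rescaling). Of its 5 genes, GDCH was higher in dividing tissue at 0.36, and SHM1, at -1.16, and GLDP1 were higher in non-dividing tissue. After rescaling, 3 of the genes were called higher in non-dividing tissue and none in dividing tissue. GDCH then had -0.04 (limma adjusted p = 0.745). SHM1, a serine hydroxymethyltransferase, had 162 and 174 FPKM in dividing and 361 and 394 FPKM in non-dividing tissue.

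**Figure D4:**
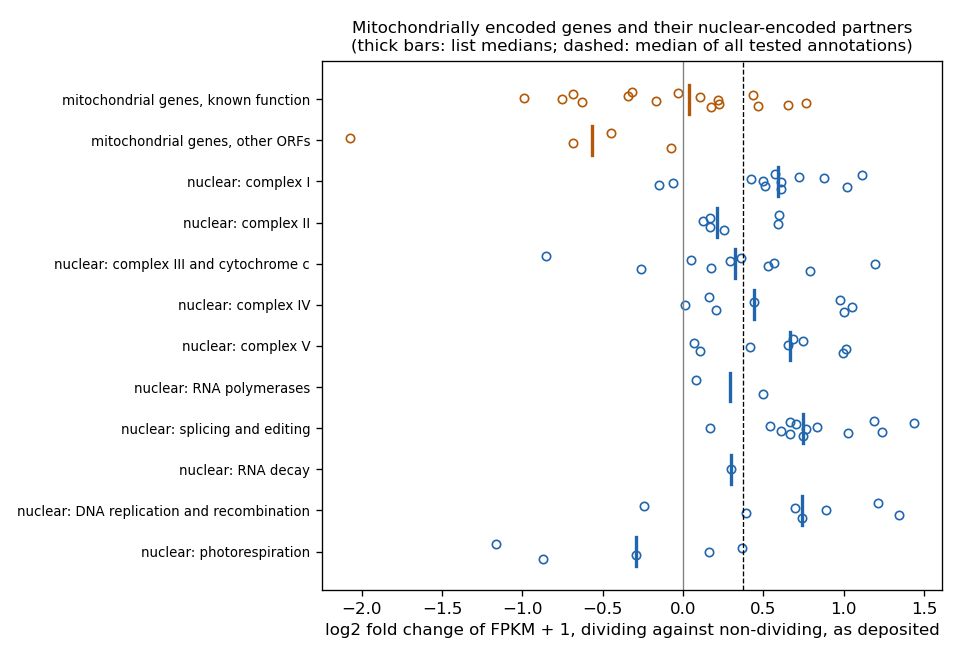
Log2 fold changes (FPKM + 1, dividing against non-dividing, as deposited) of the mitochondrial genes (orange) and of nuclear-encoded partners by list (blue); each circle is a gene, thick bars are list medians and the dashed line is the median of all tested annotations, 0.38. The median is 0.04 for the 16 mitochondrial genes of known function and -0.57 for the 4 ORFs. It is 0.59, 0.44 and 0.67 for the nuclear genes of complexes I, IV and V, 0.21 for complex II and 0.32 for complex III with cytochrome c. Values of genes with low FPKM are shrunk more on this scale.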

How the data were processed

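The GEO sample titles gave the tissue and replicate of the libraries, and the study's own overview of libraries gave the line. Reads were aligned by the authors to TAIR9 using TopHat 1.2.0, Bowtie 0.12.7 and SAMtools 0.1.13 (base calls by CASAVA 1.7, per the submitters' processing notes) and the deposited values are the FPKM that Cufflinks 0.9.3 gave for each annotation and library. How reads that map to several places were treated is not given in the sources used here. FPKM carries no counts, so the depth behind single values is unknown and no intervals for counting error are given.

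Members and gene lists were chosen with earlier results of these data known. Gene names follow the roles fixed in the design; they were checked in the RefSeq annotation of TAIR10.1, where 17 of 38 IDs are cited in notes of nuclear copies and 37 of 38 kept the spacing to another named gene within 40 bases. Coordinates of genes are those of TAIR9, raised by 1 at the start. Sequences, and the share of 36-base stretches found on other chromosomes, come from TAIR10.1. The share was computed on the RefSeq gene, which for COX3, ATP6-1, ATP6-2 and ATP9 was much shorter than the TAIR9 annotation. The table gives neither strand nor exons.

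Log2 fold changes were calculated with limma 3.58.1 in R 4.3.3 (lmFit, eBayes with trend) on log2(FPKM + 1), for all annotations averaging 1 FPKM or more. Tests were two-sided and p-values were adjusted over all of these annotations (Benjamini-Hochberg). Python 3.11.15 was used for the rest. The replicate number coincides with the transgenic line, and same-numbered libraries deviated together from the tissue means (Pearson 0.257, Spearman 0.241, over 17967 annotations), so the line was also fitted as a block. The p-values measure the spread between 2 libraries per tissue, which includes the difference between the lines. Rescaling used the annotations above 0 in all 4 libraries (factors 1.13 and 1.14 for dividing, 0.848 and 0.859 for non-dividing tissue). In simulated data, 135 of 200 changed genes among 17967 were recovered (88 of 100 changed 4-fold, 47 of 100 changed 2-fold), with 5 false calls. These counts were not split by FPKM, and recovery at the low FPKM of the mitochondrial genes was not tested. Data with as many changes as the 51.7% and 18.2% of annotations called here were not tested either.

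The text names every member of known function, the 5 ORFs with the highest mean FPKM and up to 3 called ORFs with the largest change in each direction. It also names the nuclear partner with the largest and smallest change in each list. GLDP1, ATMG01090, ATCG00490 and nuclear copies are named besides. Alternatives covered the pseudocount (0.1 and 5), the filter, the line as a block, rescaling, scaling to nuclear genes, quantile normalization, sequence shared with the nucleus, and leaving out each library.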

Additional observations from a re-analysis of the deposited data

Results flagged for a closer look

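For 5 of the 20 mitochondrial genes tested, the tissue difference had opposite signs in the lines. The log2 ratio of FPKM + 1, dividing to non-dividing, was -0.40 for HTR5::GFP and 0.61 for HTR13::GFP plants in ATP4, and -0.71 and 0.03 for NAD4L. It was -0.27 and 0.12 for ATMG00030, 0.36 and -0.02 for NAD5C, and 0.047 and -0.11 for ATP1. Each line has 1 library per tissue, so the difference between the lines was not tested.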

How the results depend on the processing

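Of 241 values of the 20 genes under the alternatives, 187 kept their direction and their side of the threshold, 18 called values were no longer past it, 18 uncalled values passed it and 18 changed sign. ATP9 and ATMG00590 kept their calls throughout. The number of genes higher in dividing tissue was 1 as reported, beside 51.7% of all annotations tested. It was 4 with the replicate block (the pairing by line, 54.1% of all annotations). Without a filter on low FPKM it was 4 of 60 genes tested (48.7% of all). With a pseudocount of 0.1 it was 0 (2 at an unadjusted p under 0.05, 51.1% of all). It was also 0 after rescaling (0 unadjusted, 31.0%), quantile normalization (0, 32.1%) and rescaling with the replicate block (1, 33.3%). A mean of at least 5 FPKM gave 0 (0 unadjusted, 51.7% of all), as only ATMG00030 was tested. Among genes with little sequence in the nucleus it was 0 (2 unadjusted). Leaving out 1 library lowered the share of all annotations called higher in dividing tissue, so counts there cannot be set beside the 1 reported.

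The number higher in non-dividing tissue was 6 as reported, beside 18.2% of all annotations tested. It was 13 without a filter (60 genes tested, 16.1% of all annotations) and 11 after quantile normalization (29.2%). With rescaling and the replicate block it was 10 (33.2%), and with a mean of at least 5 FPKM it was 0 (0 unadjusted, 19.7%). Leaving out 1 library lowered the share of all annotations called higher in non-dividing tissue, and the calls of the 20 genes fell as well. The median log2 fold change, -0.12 as reported, was -0.43 after rescaling, with or without the replicate block, -0.65 after quantile normalization, -0.57 for the ORFs, 0.038 for genes of known function and 0.17 for genes with little sequence in the nucleus. Leaving out 1 library gave -0.30 to -0.070, the former without the non-dividing HTR13::GFP library. The ratio of summed FPKM, 0.815 as reported, was 0.613 after rescaling, 0.614 after rescaling with the replicate block, 0.926 with a mean of at least 5 FPKM, 0.768 without ATMG00030 (added after seeing the data) and 0.769 to 0.866 when 1 library was left out.

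Signs changed after quantile normalization for NAD5C (-0.33), NAD9 (-0.017), RPS3 (-0.31), NAD7 (-0.35), ATP4 (-0.40) and RPS12 (-0.10), and after rescaling, with or without the block, for NAD5C (-0.10), RPS3 (-0.024) and ATP4 (-0.18). Leaving out 1 library moved the log2 fold change across 0 for ATP4 (-0.23 to 0.45), ATP1 (-0.070 to 0.010) and ATMG00030 (-0.41 to 0.26). The cause of these changes was not tested. On the deposited scale the replicate block changed no call of the 20 genes other than those of CCMB, NAD9 and RPL16, and on the rescaled values it added calls of NAD1C (adjusted p = 0.0265) and ATMG00030 (adjusted p = 0.0146). A lone library in a tissue was assumed to vary like the others. The depth behind low FPKM is unknown.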
